A study of Mus musculus with 8 samples.

Results

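The genes described here drive and execute mitosis. They were named by symbol as a list of 49 genes, and 47 of them had a probe set (a group of probes that reads 1 transcript) annotated to that gene alone, out of 17097 genes read by such probe sets. Each gene was represented by its brightest such probe set, by mean signal over all 8 arrays. Ccnb1 and Nuf2 were not analysed here.

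RNA came from acute myeloid leukaemia (AML) cell lines of mouse, grown with 10% serum and 5 ng/ml of the cytokine IL-3 and given no treatment. Per the labels, the 4 arrays of Trib1 hi are from cells that express both Hoxa9 and Trib1, and the 4 of Trib1 null from cells with Hoxa9 only; the signals of both genes, given below, do not bear this out. Hoxa9 belongs to the homeobox transcription factors and can transform myeloid progenitors. Trib1, a pseudokinase, recruits COP1, which marks C/EBP alpha for destruction. Both groups share an origin in mice lacking both copies of Trib1. The comparison asks how mitotic gene expression differs between Hoxa9-driven cells with and without Trib1. The labels leave unsaid how many cultures, mice, lines or clones stand behind each set of 4, and the p-values therefore rest on a spread among arrays that may be technical. Because both groups are cell lines, a difference between lines and an effect of Trib1 cannot be told apart. Bulk RNA also cannot tell a larger share of cells in mitosis from more RNA per cell.

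Mitosis begins when cyclin B with the kinase CDK1 is activated by CDC25 phosphatases. Condensins then compact the chromosomes, kinetochores attach them to the spindle, and the spindle checkpoint holds back the anaphase-promoting complex until every chromosome is attached. That complex, with CDC20, then marks securin and cyclin B for destruction, sister chromatids part, and the cell divides. Most of these genes are transcribed late in the cell cycle through a promoter element called the cell cycle genes homology region (CHR) together with CCAAT boxes, bound by the MuvB complex with B-MYB and FOXM1 and by NF-Y. AML cells in culture divide continually.

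The promoters of these genes carry that element more often than promoters in general. RefSeq promoter windows of the mouse build GRCm38.p6, which run from 250 bases before to 50 bases after the transcript start, were found for 40 of the 49 genes, in 43 windows. The CHR letters TTTGAA, searched on both strands, were in 31 of the 43 windows (72.1%), against 17.9% of all 32851 promoters and 12.5% of those of genes tested on these arrays. CCAAT, also on both strands, was in 33 of the 43 windows (76.7%) against 37.4% of all promoters. Matches of the pair can share at most 1 letter, at their ends, and windows of 1 gene can overlap. Both motifs stood in 65.1% of the windows against 6.95% of all promoters and 4.9% of those of tested genes. In windows of other mitotic genes, the second list described further on, TTTGAA was in 36%, CCAAT in 58% and both in 25%. By the test described further on, TTTGAA was held by 8 of 11 genes called higher that had a window, 3 of 5 called lower and 17 of 22 not called. A match is a description of letters, not evidence of binding.

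The promoters of 6 genes are shown to set the motif beside the results: 3 of genes called higher (Cdc20, Ube2c and Bub3), 2 of genes not called (Cdk1 and Kif11), and that of Plk4, the gene with the largest increase, whose window holds neither motif. Each is the 120 bases before the transcript start, 5′ to 3′ along the gene, with CHR and CCAAT matches on either strand in capitals.
Cdc20 (chr4:118437344-118437463, minus strand): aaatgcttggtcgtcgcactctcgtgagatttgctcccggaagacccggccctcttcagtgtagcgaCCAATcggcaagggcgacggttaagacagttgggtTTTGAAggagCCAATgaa
Ube2c (chr2:164769809-164769928, plus strand): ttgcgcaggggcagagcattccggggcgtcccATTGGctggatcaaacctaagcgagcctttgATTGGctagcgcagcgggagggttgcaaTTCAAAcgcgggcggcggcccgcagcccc
Bub3 (chr7:131560250-131560369, plus strand): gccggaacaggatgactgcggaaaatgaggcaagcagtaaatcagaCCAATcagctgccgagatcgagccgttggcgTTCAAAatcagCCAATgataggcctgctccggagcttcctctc
Cdk1 (chr10:69352913-69353032, minus strand): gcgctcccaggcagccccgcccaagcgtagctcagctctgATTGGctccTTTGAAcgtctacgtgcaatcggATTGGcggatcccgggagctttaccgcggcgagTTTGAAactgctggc
Kif11 (chr19:37376262-37376381, plus strand): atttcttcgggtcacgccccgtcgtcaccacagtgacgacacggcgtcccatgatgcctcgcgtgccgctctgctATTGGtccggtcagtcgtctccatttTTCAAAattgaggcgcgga
Plk4 (chr3:40799831-40799950, plus strand): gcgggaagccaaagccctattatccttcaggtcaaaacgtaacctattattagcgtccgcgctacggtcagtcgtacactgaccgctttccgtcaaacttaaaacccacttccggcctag
The CHR match began 18 bases before the start in Cdc20, 29 in Ube2c, 43 in Bub3 and 19 in Kif11, and Cdk1 had matches at 71 and 15 bases. In all 5, CCAAT boxes lay in the same stretch.

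The arrays were scaled alike but differed in shape. Between 17.7% and 23.2% of probe sets exceeded a signal of 500 on each array, and the median ran from 3.71 to 68.3. On Trib1 hi 3 bright probe sets read lower and dim ones higher than on the other arrays of its group: its 95th percentile was 3733, against 4708 to 4967. Trib1 hi 3 was the lowest of its group for 28 of the 47 mitotic genes. The groups differed too: on the arrays labelled Trib1 null the 95th percentile was 3972 to 4457. There 20.1% to 22.6% of probe sets exceeded 500, against 17.7% to 19.0% on Trib1 hi 1, 2 and 4. Folds below are ratios of group means after signals under 500 were raised to 500, since the arrays part in shape under that level. Some control probe sets, which read none of the mitotic genes, also parted by group. DapX-3 read 1333 to 1577 against 1961 to 2388.5 (log2 difference -0.52), and r2-Bs-dap-M read 1407 to 1496.5 against 1953 to 2344 (-0.54). Others did not part, such as BioDn-5 (1628 to 2402 against 1753 to 2081, 0.16). Whether such a shift enters the differences of genes of like signal, among them Bub1b and Cenpf, was not tested. Trib1 itself went against its label. Its signals were 7.13, 7.13, 122 and 5.92 in Trib1 hi 1 to 4, whereas Trib1 null 1 to 4 gave 304, 223, 212 and 206, all of them under 500. The sources used here do not place that probe set within or outside the deleted part of Trib1. Hoxa9, which both groups are labelled as expressing, read 107 ± 189 against 1024 ± 43.5. Each direction below is that of the labels.

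Myeloid genes were present and differed in both directions. All 11 myeloid markers had tested probe sets, 5 of them called higher in the Trib1 hi set and 4 lower. The 5 higher were Cebpa, the transcription factor C/EBP alpha (7291 ± 1285 against 4002 ± 109), the progenitor genes Cd34 (3429 ± 431 against 25.1 ± 39.98) and Kit (379.9 ± 208 against 77.3 ± 41.2), and the granule genes Mpo (5201 ± 755 against 2.92 ± 0.791) and Elane (4452 ± 653 against 802 ± 170.2). The 4 lower were Itgam, the integrin CD11b of mature myeloid cells (1660.0 ± 88.9 against 5122 ± 325), Lyz2, lysozyme (16563 ± 2886 against 24069.6 ± 1946), Csf3r, the receptor of G-CSF (415 ± 173 against 889.6 ± 149), and Spi1, the transcription factor PU.1 (567 ± 217 against 969.9 ± 112). Ptprc and Csf2rb passed in neither direction. The summed signal of the 11 ran from 49957 to 69929 and from 55598 to 65839. Lymphoid markers (6 of 7 on the array) were all under 500 on every array, with sums of 21.4 to 298 and 20.7 to 197. Of 5 erythroid and megakaryocytic markers, 4 were under 500 on every array (sums of 74.8 to 1363 and 161 to 687), as were 6 of 7 stromal and endothelial markers, the exception being Pecam1 (sums of 1637 to 1749 and 2125 to 2367). The part of these marker differences in the mitotic ones was not tested.

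Mitotic genes were bright in both groups and differed little. Of the 47, 42 had a mean signal over 500 and 25 over 2000; the brightest were Ube2c and Bub3. In the arrays labelled Trib1 hi, 14 of the 47 were higher and 5 lower, and 28 passed the test in neither direction. Among all 12250 tested genes, 11.1% were called higher and 19.7% lower, so a larger share of mitotic genes was higher (29.8%) and a smaller share lower (10.6%). Shares also moved with brightness: over a mean signal of 500 the shares of all tested genes were 24.2% and 31.1%, against 33.3% and 7.14% of the 42 mitotic genes (14 and 3). Over 2000 they were 29% and 22.6%, against 11 and 1 of 25. The differences were small: over a mean signal of 500 the fitted log2 difference ran from -0.49 to 0.72, with a median of 0.17 for the 42 genes against -0.03 for all tested genes of that brightness.

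**Figure D1:**
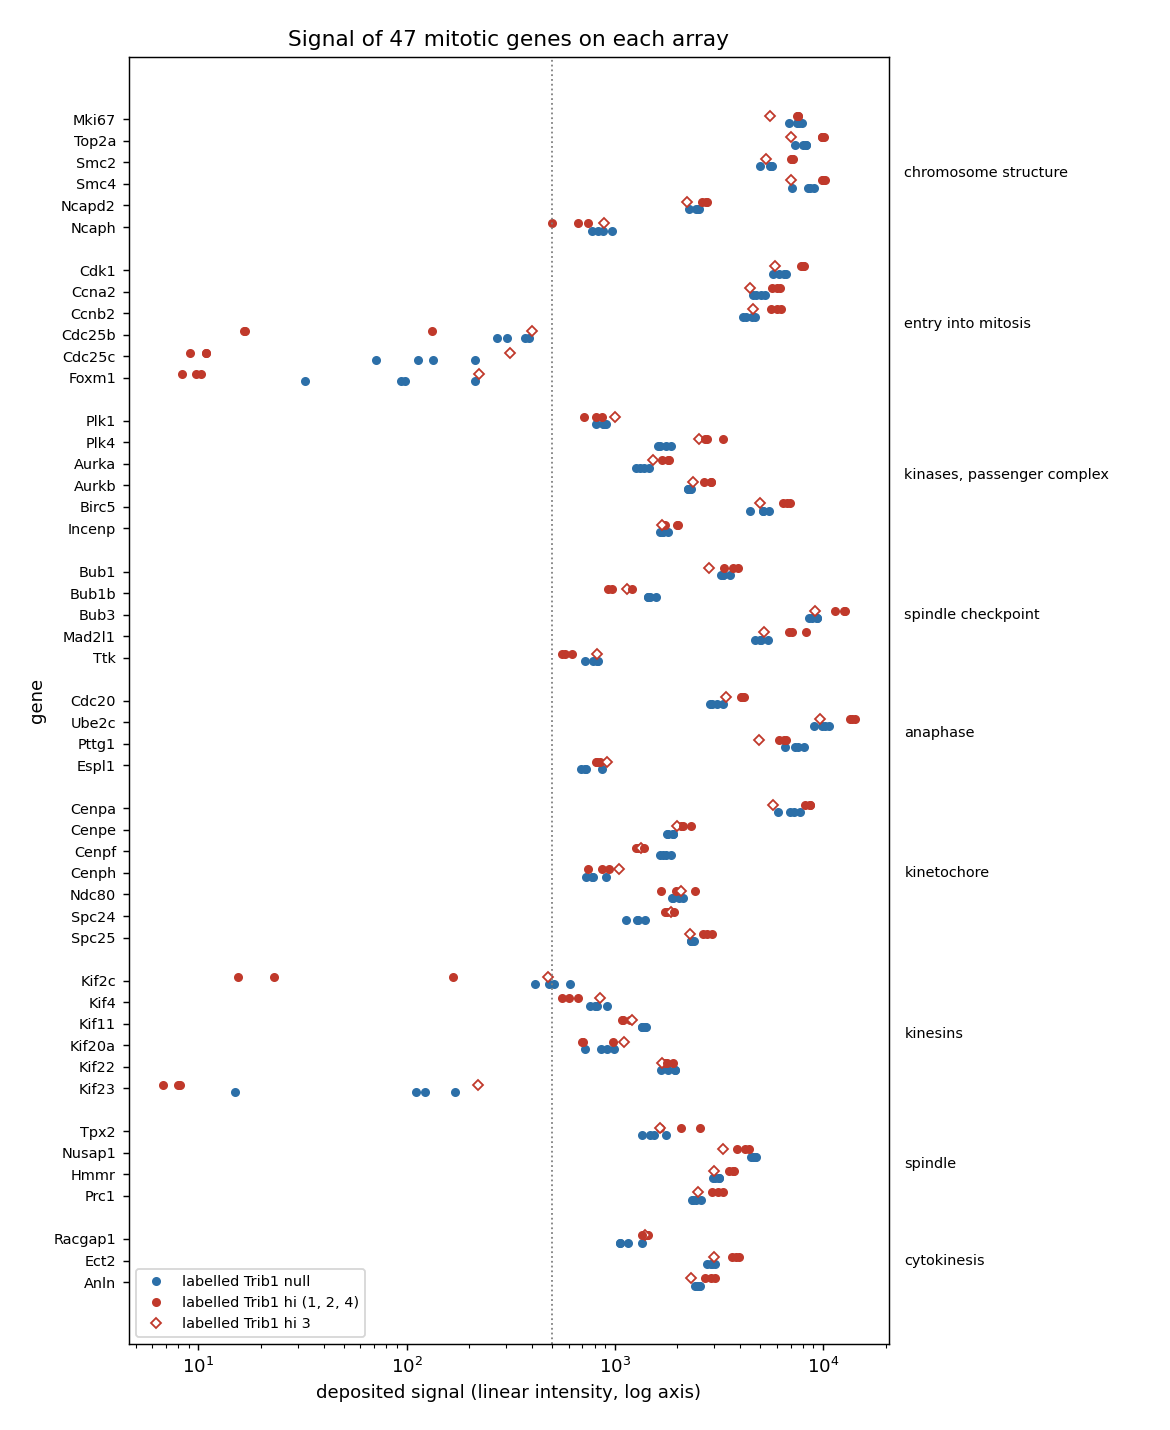
Deposited signal (log axis) of the 47 tested mitotic genes on each array, by role; red marks the arrays labelled Trib1 hi, with the open diamond for Trib1 hi 3, blue those labelled Trib1 null, and the dotted line a signal of 500. The groups lie close for most genes, and 5 genes (Cdc25b, Cdc25c, Foxm1, Kif2c and Kif23) have mean signals under 500.

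Groups were apart for few of these genes. They did not overlap for 7 genes in the higher and 4 in the lower direction, where 13.5% and 15.8% of all tested genes did not. All 11 had mean signals over 500. Of the 42 genes of that brightness they were smaller shares than the 21.9% and 30.6% among all tested genes over 500, so at like brightness the mitotic genes did not stand out upwards by this measure. No test of that difference was made.

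The number of genes called depended on the array Trib1 hi 3. Without it, a comparison added after the data were seen, the groups parted for 24 and 12 of the 47, against 20% and 33.2% of all tested genes; over a signal of 500 they parted for 24 and 7 of 42, against 36.9% and 36.5%. Called genes then numbered 25 higher and 13 lower, against 17.2% and 30.8% of all tested genes. Over 500 they numbered 25 and 8 of 42, against 35.5% and 36.5%. Leaving out any other array gave 6 to 11 higher and 3 to 5 lower of the 47. Of all 12250 tested genes, the same fits called 1153 to 1251 higher and 1964 to 2201 lower. Quantile normalization, which gives every array the same distribution, called 25 higher and 8 lower, against 27.4% of all tested genes in each direction, and kept all 14 higher calls and 4 of the 5 lower ones. Over 500 it called 25 and 6 of 42, against 38.8% and 39.7%. Scaling the arrays to equal medians turned all 14 higher calls to a negative difference and called 0 higher and 5 lower. It moved the median difference of all tested genes from 0.04 to -0.81, and the median of the mitotic genes was then -0.72. The array medians were 68.3 on Trib1 hi 3 and 3.71 to 9.56 on the other arrays. Equal medians thus lower every signal of Trib1 hi 3 against the rest, so the turned signs cannot be read as differences of the genes themselves.

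**Figure D2:**
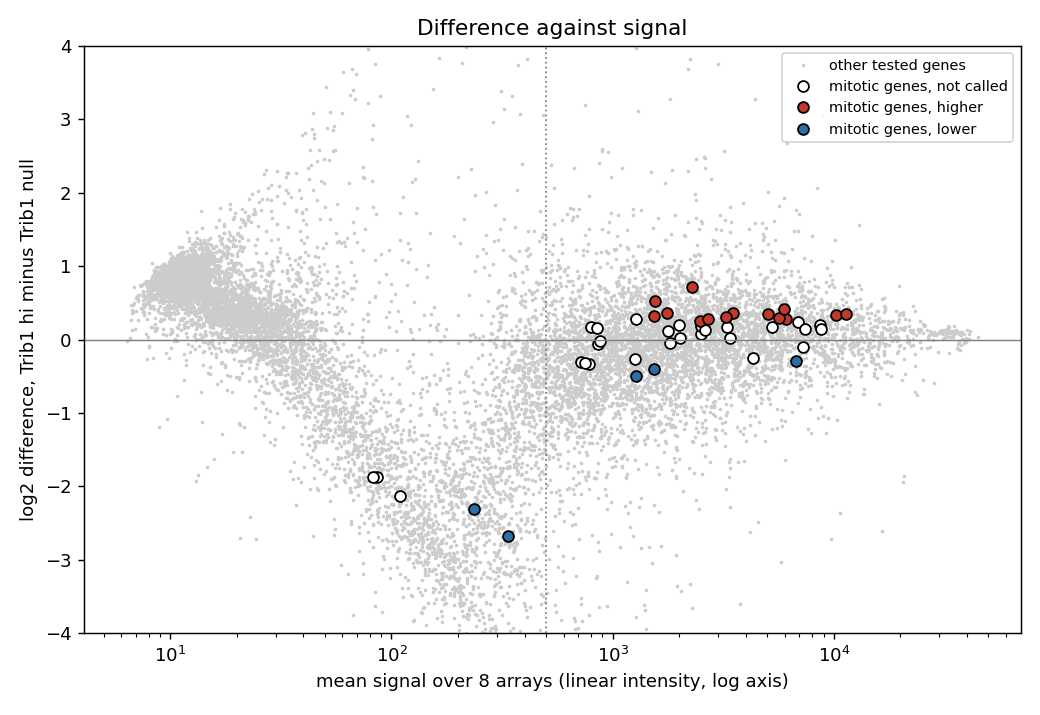
Fitted log2 difference, arrays labelled Trib1 hi minus Trib1 null, against mean signal over 8 arrays (log axis) for all tested genes (grey; 214 lie beyond the vertical range) and the mitotic genes (circles; red higher, blue lower, white not called). Between signals of 100 and 500 the whole cloud sinks, with a median of -1.96, and the mitotic genes with lower means lie in it, whereas those over 500 stay near 0.

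Of the 6 genes of chromosome structure, Smc2 rose and none fell. Smc2, a core ATPase of condensin, read 7144, 7215, 5333 and 7025 in Trib1 hi 1 to 4 and 4977, 5607, 5588 and 5671 in Trib1 null 1 to 4, the order kept below. Only Trib1 hi 3 lay within the range of the other group, and Smc2 was 1.22-fold higher (6679 ± 901 against 5461 ± 324, SD, n = 4, adjusted p = 0.0386). Its partner Smc4 read 9971, 10193, 7002 and 9903 against 7075, 9093, 8493 and 8672, with 3 arrays above and Trib1 hi 3 below the whole other group (1.11-fold, adjusted p = 0.458). Top2a, the topoisomerase that untangles sister chromatids, read 10166, 9939, 7061 and 9952 against 7339, 8265, 8058 and 8266 and showed the same layout (1.16-fold, adjusted p = 0.218). Mki67 coats mitotic chromosomes and is the standard marker of dividing cells. It read 7479, 7621, 5568 and 7558 against 6897, 7896, 7483 and 7696, so the groups overlapped (difference -0.10 ± 0.11 on the log2 scale, SE, adjusted p = 0.594). The condensin subunits Ncapd2 (2591 ± 253 against 2451 ± 114) and Ncaph (699.7 ± 161 against 865 ± 85.8) missed the threshold as well.

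The Smc2 call ended without any 1 array other than Trib1 hi 3 (adjusted p = 0.0554 to 0.14), and another of its 4 probe sets, over 500 on all arrays, differed by -0.08. Without Trib1 hi 3, Top2a (0.33, adjusted p = 0.000957), Smc4 (0.27, 0.0248) and Ncapd2 (0.15, 0.0394) also passed upwards and Ncaph downwards (-0.45, 0.0326). After quantile normalization Mki67 passed downwards, with a difference of -0.22 (adjusted p = 2.93e-06; its alternatives ran from 2.93e-06 to 0.962), and Top2a upwards with 0.13.

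Of the 6 tested genes of entry into mitosis, Ccnb2 rose and Cdc25b fell. Ccnb2 encodes cyclin B2, a partner of CDK1, and read 6024, 6326, 4624 and 5617 against 4287, 4704, 4580.0 and 4142. Its 3 highest values were Trib1 hi 1, 2 and 4, while Trib1 hi 3 lay within the other group. The fold was 1.28 (5648 ± 742 against 4428 ± 259, adjusted p = 0.00825), and no single array ended the call. Cdk1, the kinase that drives mitosis, read 8115, 8055, 5907 and 7830.2 against 5760.0, 6647, 6538 and 6160.1, again with only Trib1 hi 3 inside the other group's range (1.19-fold, adjusted p = 0.0922). Ccna2, cyclin A2, stood at 5595 ± 794 against 4922 ± 292 (adjusted p = 0.239). Cdk1 passed without Trib1 hi 3 (adjusted p = 0.00103) and after quantile normalization (0.00148; all alternatives, 8.82e-07 to 0.752), and Ccna2 without Trib1 hi 3 (0.00368).

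Cdc25b, Cdc25c and Foxm1 were dim. Cdc25b, a phosphatase that switches on CDK1, read 16.7, 16.6, 399.8 and 133 against 369, 272, 388 and 303. Trib1 hi 3 gave the highest value of all 8 arrays and the other 3 of its group the lowest, and all lay under 500, so no fold is given (adjusted p = 0.0409). Tested genes between signals of 100 and 500 had a median difference of -1.96, and 36.7% of them were called lower and 3.43% higher; the difference of Cdc25b, -2.30, lay near that median. After quantile normalization it was -0.15 (adjusted p = 0.402; all alternatives, 9.09e-07 to 1), and the call also ended without Trib1 hi 1, Trib1 hi 2, Trib1 null 1, Trib1 null 2, Trib1 null 3 or Trib1 null 4 (adjusted p = 0.0612 to 0.13). Foxm1, the transcription factor of late cell cycle genes, read 10.3, 9.77, 223 and 8.35 against 213, 32.5, 94.3 and 97.8, with Trib1 hi 3 at the top and the other 3 at the bottom (adjusted p = 0.482). Cdc25c, a related phosphatase, read 86.2 ± 152 against 133 ± 59.7 (adjusted p = 0.37). Without Trib1 hi 3 both passed downwards (adjusted p = 0.0127 for Foxm1 and 0.00288 for Cdc25c; all alternatives, 4.30e-05 to 1 and 1.01e-05 to 1), at levels where the arrays differ in shape.

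Of the 6 genes of mitotic kinases and the chromosomal passenger complex, 4 rose and 0 fell, and the largest increase of all 47 was here. Plk4, the kinase that starts duplication of centrioles, read 3327, 2767, 2549.6 and 2721 against 1642, 1619.9, 1758 and 1866. The lowest array labelled Trib1 hi lay well above the highest labelled Trib1 null, and Plk4 was 1.65-fold higher (2841 ± 337 against 1722 ± 114, adjusted p = 5.59e-07). It stayed called under 18 of 19 alternatives, the exception being equal medians. Its second probe set pointed the same way without passing (1234 ± 294 against 955 ± 78.0, adjusted p = 0.126 in the fit over all probe sets). Aurka, the kinase of spindle poles, read 1819.6, 1679, 1519.8 and 1798 against 1457, 1329, 1381 and 1269, without overlap and 1.25-fold higher (adjusted p = 0.0166). Plk1 triggers several steps from entry to cytokinesis. It read 816, 709, 1003 and 866 against 908, 883, 893 and 817, with Trib1 hi 3 the highest of all 8 and Trib1 hi 1 and 2 the lowest (difference -0.05 ± 0.14, SE, adjusted p = 0.856).

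The passenger complex corrects faulty attachments at the centromere. Its kinase Aurkb read 2679, 2886, 2380.2 and 2887 against 2314, 2304, 2243 and 2242, each array of the first group above all of the second (1.19-fold, adjusted p = 0.042). Birc5, survivin, which brings the complex to centromeres, read 6723, 6917, 4981 and 6457 against 4468, 5521, 5148 and 5160.2, and Trib1 hi 3 alone lay among the other group (1.24-fold, adjusted p = 0.0308). Incenp, the scaffold of the complex, read 1751, 1984, 1688 and 2012 against 1711, 1793, 1646 and 1683, with overlap (1.09-fold, adjusted p = 0.455). Calls ended for Aurka without Trib1 hi 1, Trib1 hi 4 or Trib1 null 4 (adjusted p = 0.0637 to 0.0781), for Birc5 without Trib1 hi 1, Trib1 hi 2, Trib1 hi 4 or Trib1 null 1 (adjusted p = 0.0855 to 0.135) and for Aurkb without any 1 array other than Trib1 hi 3 (adjusted p = 0.0761 to 0.144). After quantile normalization all 6 genes of the group were called higher, among them Incenp (0.14, adjusted p = 0.0306; all alternatives, 0.0306 to 0.896) and Plk1, whose difference turned positive (0.20, adjusted p = 0.0201; all alternatives, 0.0201 to 1). Quantile normalization called 38.8% of all tested genes with a mean signal over 500 higher and 39.7% lower.

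Of the 5 spindle checkpoint genes, Mad2l1 and Bub3 rose and Bub1b fell. Mad2l1 encodes MAD2, which binds CDC20 until kinetochores are attached, and read 6837, 8286, 5222 and 7123 against 4738, 5455, 5033 and 5006. Trib1 hi 3 lay within the other group and the other 3 above it (1.36-fold, adjusted p = 0.00315). Bub3, a partner of BUB1 and BUBR1, read 12724, 12585, 9172 and 11446 against 8559, 9371, 9408 and 8901 in the same layout (1.27-fold, adjusted p = 0.0305). Bub1b, which encodes BUBR1 of the checkpoint complex, went the other way at 967, 927, 1142 and 1204 against 1471, 1580.1, 1447 and 1439.7. No array of the first group reached the second, and it was 1.40-fold lower (adjusted p = 0.00114), kept in every leave-one-out fit. Its second bright probe set also read lower (1002 ± 121 against 1242 ± 42.3, adjusted p = 0.0741 in the fit over all probe sets). Some control probe sets of like signal, given above, were lower as well. Others were not, such as BioC-3 (means of 1005 against 995, log2 difference -0.02).

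Bub1, the kinase that recruits the others, read 3684, 3918, 2841 and 3341 against 3258, 3314, 3312 and 3568, and Trib1 hi 3 gave the lowest value of all 8 (difference 0.03 ± 0.10, SE, adjusted p = 0.905). Ttk, the kinase MPS1 at the head of the checkpoint, stood at 647 ± 123 against 789.5 ± 50.9 (adjusted p = 0.199) and passed downwards without Trib1 hi 3 (-0.43, adjusted p = 0.00363; all alternatives, 5.65e-05 to 0.967); after quantile normalization its difference was 0.01. The Bub3 call ended without any 1 array other than Trib1 hi 3 (adjusted p = 0.0549 to 0.122). It turned negative with the mean of all 4 of its probe sets (-0.12, adjusted p = 0.918), 3 of which lay under 500 on every array.

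Of the 4 anaphase genes, Cdc20 and Ube2c rose and Pttg1 fell. Cdc20, the activator of the anaphase-promoting complex, read 4167, 4087, 3442 and 4022 against 2869, 3115, 3312 and 2939.7. All 4 arrays labelled Trib1 hi were above the other group (1.28-fold, 3929 ± 331 against 3059 ± 198, adjusted p = 0.00278), and no single array ended the call. Ube2c, the ubiquitin-conjugating enzyme of that complex, read 13771, 14206, 9694 and 13554 against 9022, 10659, 10279 and 9896, with Trib1 hi 3 inside the other range (1.29-fold, adjusted p = 0.0336). Pttg1 encodes securin, the inhibitor of separase that the complex destroys. It read 6659, 6519.8, 4954 and 6176 against 6607, 8128, 7607 and 7382, lower on 3 of 4 arrays than every array labelled Trib1 null, with Trib1 hi 1 inside the other range (1.22-fold lower, adjusted p = 0.0333). A second bright Pttg1 probe set fell too (1099.7 ± 142 against 1573 ± 87.0, adjusted p = 0.00174 in the fit over all probe sets). Espl1, separase itself, read 848, 821, 915 and 809.7 against 865, 689, 730.1 and 723, with overlap (1.13-fold, adjusted p = 0.448).

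The Ube2c call ended without Trib1 hi 1, Trib1 hi 2, Trib1 hi 4, Trib1 null 1, Trib1 null 3 or Trib1 null 4 (adjusted p = 0.0619 to 0.133) and the Pttg1 call without Trib1 hi 4, Trib1 null 2, Trib1 null 3 or Trib1 null 4 (adjusted p = 0.0625 to 0.126). Espl1 passed upwards after quantile normalization (0.42, adjusted p = 0.0004; all alternatives, 0.0004 to 0.683), where Pttg1 stayed lower (-0.41, adjusted p = 1.35e-08).

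Of the 7 tested centromere and kinetochore genes, Spc24 rose and Cenpf fell. Spc24 is a subunit of the NDC80 complex that grips microtubules, and read 1780.1, 1749, 1859.6 and 1933 against 1404, 1131, 1277 and 1293. The groups were wide apart, Trib1 hi 3 included (1.43-fold, 1830.5 ± 82.9 against 1276 ± 112, adjusted p = 0.000166), and the call ended only with equal medians. Other subunits of the complex did not pass: Spc25 read 2669 ± 275 against 2346 ± 34.2 (adjusted p = 0.168) and Ndc80 2029 ± 313 against 1987 ± 114 (adjusted p = 0.934). Spc25 passed without Trib1 hi 3 (0.25, adjusted p = 0.00211) and after quantile normalization (0.14, adjusted p = 0.0104; all alternatives, 3.62e-05 to 0.711). For Ndc80 no alternative passed (range 0.111 to 1). Whether Spc24 differs from its partners was not tested.

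Cenpf, a large protein of the outer kinetochore, read 1287, 1262, 1340.3 and 1377 against 1654, 1764, 1702 and 1869. All of the first group lay below the second (1.33-fold lower, adjusted p = 0.00207), and no single array ended the call. As for Bub1b, some control probe sets of like signal were lower as well and others were not. Cenpa, the histone H3 variant that marks centromeres, read 8682, 8232, 5773 and 8677 against 6115, 7761, 7277 and 6931, with 3 arrays above and Trib1 hi 3 below the whole other group (1.12-fold, adjusted p = 0.442), and passed without Trib1 hi 3 (0.29, adjusted p = 0.0157; all alternatives, 6.39e-05 to 0.871). Cenpe, a kinesin of the kinetochore, stood at 2126 ± 138 against 1849 ± 58, without overlap but not past the threshold (adjusted p = 0.12), and passed after quantile normalization (0.21, adjusted p = 0.00122; all alternatives, 0.000193 to 0.984). Cenph, of the inner kinetochore, stood at 900.2 ± 129 against 802 ± 76.8 (adjusted p = 0.501), and its difference was larger after quantile normalization (0.42, adjusted p = 0.000176; all alternatives, 0.000176 to 0.774).

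Of the 6 genes grouped as kinesins, 0 rose and Kif2c fell, and none had its groups apart in the higher direction. Cenpe, the kinesin listed with the kinetochore genes, is not among these 6 and was apart in that direction. Kif2c, the microtubule depolymerase MCAK, read 15.5, 23.2, 479.8 and 168 against 482, 412, 513 and 611. Trib1 hi 3 reached the other group and the other 3 were far below (adjusted p = 0.00473). Most values lay under 500, in the range where the median gene read lower, so no fold is given. Quantile normalization left a difference of -0.71 (adjusted p = 0.00183), while raising all signals to at least 500 ended the call (adjusted p = 0.701; all alternatives, 3.27e-07 to 0.701). Kif22, a chromosome arm motor, read 1745, 1901, 1682 and 1779 against 1676, 1945, 1948 and 1808 with full overlap (difference -0.05 ± 0.10, SE, adjusted p = 0.781), and no alternative passed. Its second probe set, under 500 on 3 arrays, read lower (386 ± 230 against 644 ± 33.2, difference -0.93). That probe set passed in the fit over all probe sets (adjusted p = 0.0218).

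Kif11, the motor Eg5 that pushes spindle poles apart, stood at 1146 ± 64 against 1376 ± 34.3, 1.20-fold lower without overlap but short of the threshold (adjusted p = 0.0676; all alternatives, 0.000116 to 0.533). It passed without Trib1 hi 3 (-0.29, adjusted p = 0.00261) and after quantile normalization (-0.15, adjusted p = 0.0361). Kif4, a chromokinesin encoded on the X chromosome, read 669 ± 129 against 829.3 ± 67.6 (adjusted p = 0.151) and passed downwards only without Trib1 hi 3 or with array weights. Kif20a, a motor of the central spindle, read 874 ± 205 against 873 ± 115 (adjusted p = 0.96), and 2 alternatives passed in opposite directions: the difference was 0.25 after quantile normalization (adjusted p = 0.0373) and -0.34 with array quality weights (adjusted p = 0.00952; all alternatives, 0.00952 to 1). Kif23, which forms centralspindlin with RACGAP1, was dim (60.9 ± 107 against 105 ± 65.1, adjusted p = 0.507) and passed downwards without Trib1 hi 3 (-2.98, adjusted p = 0.0249) and after quantile normalization (-0.63, adjusted p = 0.0161; all alternatives, 0.000106 to 1).

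Of the 4 spindle assembly genes, Tpx2 and Prc1 rose and 0 fell. Tpx2, which activates Aurora A and seeds microtubules, read 1650.1, 2566, 1659 and 2081 against 1538, 1766, 1355 and 1479.7. Its arrays labelled Trib1 hi were spread widely, with Trib1 hi 1 and 3 inside the range of the other group (1.30-fold, adjusted p = 0.0233). Prc1, which bundles microtubules in the central spindle, read 3306, 3120.5, 2506 and 2947 against 2347, 2602, 2446 and 2378, with only Trib1 hi 3 inside (1.22-fold, adjusted p = 0.0276). Nusap1, a stabiliser of spindle microtubules, read 4207, 4408, 3303 and 3865 against 4535, 4734, 4595 and 4749. No array of the first group reached the second, yet the difference of -0.25 just missed the threshold (adjusted p = 0.051). Hmmr, a spindle pole protein, stood at 3490.1 ± 342 against 3093 ± 94.1 (adjusted p = 0.193). It passed upwards without Trib1 hi 3 (0.24, adjusted p = 0.00172) and after quantile normalization (0.11, adjusted p = 0.0125), and read -0.68 with the mean of its probe sets (all alternatives, 1.11e-05 to 0.713).

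Nusap1 passed downwards in 6 of 19 alternatives, among them quantile normalization (-0.34, adjusted p = 1.34e-06) and the fit without Trib1 hi 3 (-0.16, 0.0294; all alternatives, 1.34e-06 to 0.855). The Tpx2 call ended without Trib1 hi 2, Trib1 hi 4 or Trib1 null 3 (adjusted p = 0.0591 to 0.186) and the Prc1 call without Trib1 hi 1, Trib1 hi 2, Trib1 hi 4, Trib1 null 1, Trib1 null 3 or Trib1 null 4 (adjusted p = 0.0578 to 0.134). The second bright probe set of Prc1 differed by -0.05 (881 ± 136 against 908 ± 72.3).

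Of the 3 cytokinesis genes, Ect2 rose and 0 fell. Ect2 activates RhoA at the site of division and read 3943, 3844, 3005 and 3670.3 against 2790.1, 3043, 2918 and 2893. Trib1 hi 3 lay within the other group and the other 3 well above (1.24-fold, adjusted p = 0.0132), and the call ended without Trib1 hi 1 (adjusted p = 0.0665). Racgap1, its binding partner, stood at 1405 ± 39.3 against 1157 ± 134, 1.21-fold higher without overlap but just short of the threshold (adjusted p = 0.0548; all alternatives, 0.000518 to 0.729). Anln, which crosslinks actin in the furrow, read 3039, 2908, 2336 and 2721 against 2417, 2543, 2481 and 2557, with Trib1 hi 3 lowest of all (1.10-fold, adjusted p = 0.372). Racgap1 passed after quantile normalization (0.40, adjusted p = 0.000518), and both it and Anln passed without Trib1 hi 3 (adjusted p = 0.0292 and 0.00814).

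**Figure D3:**
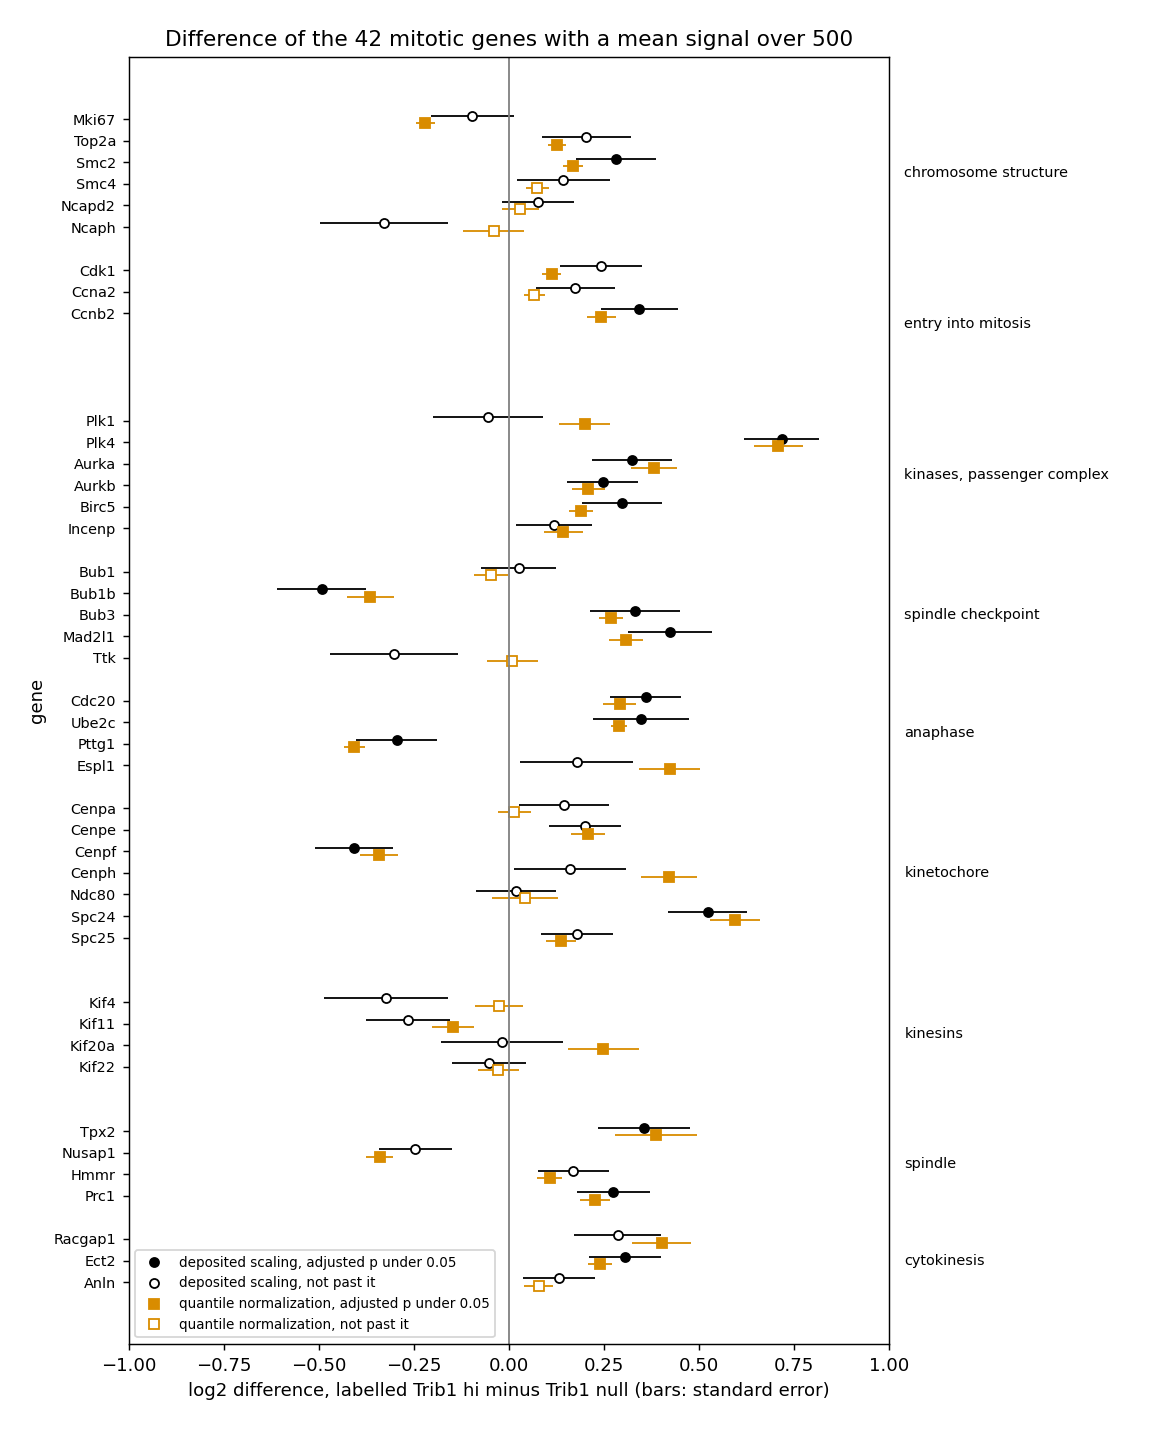
Fitted log2 difference with its standard error for the 42 mitotic genes with a mean signal over 500, under the deposited scaling (circles) and after quantile normalization (squares), filled where the adjusted p is under 0.05. Plk4 and Spc24 lie farthest to the right under the deposited scaling and Bub1b and Cenpf farthest to the left, and quantile normalization moves Plk1 and Kif20a to the right of 0.

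Further probe sets over 500 on all arrays mostly pointed the same way. Of the 47 genes, 25 had more than 1 probe set, and 9 of them had 10 further probe sets over 500 on all arrays, 8 of which differed in the same direction as the one used. The exceptions were those of Smc2 and Prc1 given above. Further probe sets with both group means over 500, but under 500 on some arrays, pointed against the one used. They were of Smc2 (-0.15), Cenpe (956 ± 323 against 1048 ± 60.3, -0.21) and Hmmr (-0.47 and -0.27), and none passed in the fit over all probe sets. Called genes were spread over chromosomes 1, 2, 3, 4, 6, 7, 9 and 11.

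Other genes of mitosis were called as often in one direction as in the other. Of 105 tested genes on a second list, of cohesin, inner kinetochore, anaphase-promoting complex, centrosome and spindle genes, 25 were higher and 25 lower (23.8% each way), with a median log2 difference of -0.05. By fitted log2 difference, the largest increases without overlap were Nek6, a mitotic kinase (at least 2.23-fold, 1116 ± 106 against 228 ± 74), the kinetochore gene Cenpk (2.12-fold, 2582 ± 165 against 1220.5 ± 63.8, adjusted p = 1.25e-10) and Ska2, of the complex that couples kinetochores to microtubules (1.71-fold, 1495 ± 115 against 873 ± 125). By the same measure the largest decreases without overlap were Ccnf, cyclin F (at least 1.79-fold, 266 ± 224 against 919.7 ± 35.5), Haus8, of the augmin complex that branches spindle microtubules (at least 1.82-fold), and Pds5b, a cohesin regulator (at least 1.52-fold). Their fitted differences were -2.20, -1.31 and -0.78, and folds given as at least are lower bounds that set no order. Fzr1 (-2.37) and Tacc3 (-2.31) were called lower by more than Ccnf but with overlap. Tacc3 was under 500 on every array and Fzr1 on all but Trib1 null 1 (503). Ncaph2 (-0.74) had a measured fold of 1.67, and all 3 were named with their values known. Cdca8, borealin, which completes the passenger complex with Aurkb, Birc5 and Incenp, was named with its values known and rose 1.57-fold (5676 ± 742 against 3616 ± 247, adjusted p = 4.84e-06).

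DNA replication precedes mitosis, and of 40 tested replication genes 13 were higher and 4 lower (32.5% and 10.0%), with a median of 0.15. Mcm2, a subunit of the replicative helicase, rose 1.78-fold (3801 ± 447 against 2135 ± 253) and Gins1, its cofactor, 1.66-fold, whereas Lig1, the ligase of the lagging strand, fell 1.65-fold (2016 ± 196 against 3333 ± 111) and Mcm5 1.45-fold. Inhibitors of cyclin-dependent kinases and cell cycle exit genes were more often lower, 6 of 12 tested against 1 higher (Rbl1, the pocket protein p107, whose groups overlapped), with a median of -0.59. Cdkn2a, the INK4A and ARF locus, fell at least 2.42-fold (382 ± 194 against 1289 ± 58.9, adjusted p = 5.20e-08) and Rbl2, the pocket protein p130, at least 3.20-fold (519 ± 144 against 1799 ± 95, adjusted p = 1.90e-11). Cdkn1b, the inhibitor p27, named here with its values known, fell 2.14-fold (1281 ± 165 against 2746 ± 192).

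The MuvB, E2F and B-MYB genes, whose products act on CHR and E2F sites, showed 2 higher and 2 lower of 9 tested, with a median of 0.22. Tfdp2, a partner of E2F proteins, rose 1.59-fold (1446 ± 158 against 909.9 ± 78.8) and Lin54, the MuvB subunit that binds the CHR, 1.40-fold (1435 ± 176 against 1023 ± 71.4, adjusted p = 0.00174). Mybl2, B-MYB, read 149 ± 186 against 465 ± 67.1 (adjusted p = 0.00667), with only Trib1 null 1 over 500. E2f5, an E2F that acts with pocket proteins, was the other gene called lower (151 ± 210.1 against 564 ± 139.6). Among 9 widely expressed control genes, 0 were higher and Gusb was lower (1.26-fold), with a median of 0.11. Whether these lists differ from the mitotic genes was not tested.

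**Figure D4:**
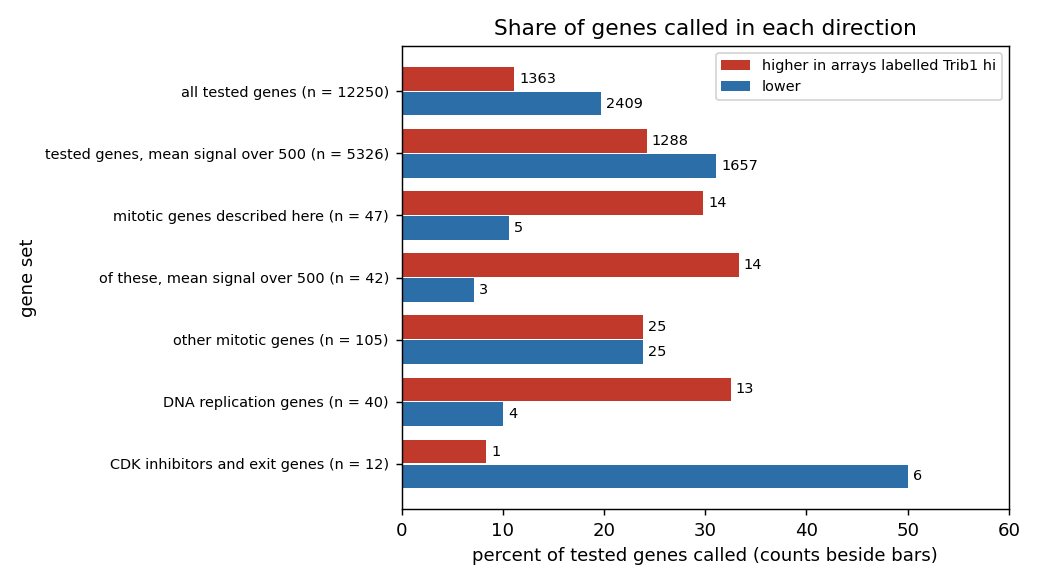
Percent of tested genes called higher (red) and lower (blue) in the arrays labelled Trib1 hi, with the number called beside each bar, for all tested genes, the mitotic genes and the other lists. The mitotic and replication genes have more genes called higher than lower, the second mitotic list has 25 each way, and 6 of 12 inhibitor genes were lower.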

How the data were processed

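The authors deposited 1 table of linear intensities, a signal for each of 45141 probe sets on each of 8 arrays. Per the submitters' processing notes they come from MAS5, which summarises probes and scales each array; no source used here gives its version or a genome build. The deposited intensities averaged 500.1 to 500.2 on every array once 2% was trimmed off both ends. Symbols came from the platform annotation: 28898 probe sets had 1 symbol, 551 several and 15588 were unlisted, besides 104 controls. RefSeq tables of GRCm38.p6 gave names, chromosomes and promoters.

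Values were tested as log2(intensity + 2.71), the pseudocount being the 25th percentile of all values. Log2 differences of dim genes depend on it and can be large. That of Cdc25b was -2.30, and -1.46 with a pseudocount of 50. The filter kept 12250 genes whose mean on that scale passed 3.01, the 40th percentile. The groups were compared with limma 3.58.1 (R 4.3.3; eBayes with a trend on mean level), two-sided, with Benjamini-Hochberg adjustment over all kept genes and a threshold of 0.05. Every adjusted p comes from it. The test was tested on simulated data first. It called 27 of 50 genes changed by 0.5 on the log2 scale, 94 of 100 by 1 and 50 of 50 by 2. A gene not called may therefore still differ by 0.5 or less. Precision is limited by having 4 arrays in each set.

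The mitotic genes, the other lists (second mitotic list, DNA replication, inhibitors, MuvB and E2F genes, myeloid, lymphoid, erythroid and stromal markers, control genes) and the tests were chosen with earlier results of these data known. A rule fixed which genes were named: each role group gives array values for up to 3 called genes with the largest difference, the brightest gene not called, and Mki67, Top2a, Cdk1, Plk1, Aurka, Aurkb and Foxm1; from other lists, the largest changes without overlap were named, 3 each way for the second mitotic list and up to 2 for the rest. Alternatives were other scalings, floors, pseudocounts, filters, probe set rules, variance models, a replicate block and leaving out each array.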

Additional observations from a re-analysis of the deposited data

Results flagged for a closer look

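Among the 94 groups of 4 arrays formed by 47 mitotic genes, 11 held a value far from the other 3 arrays of its group, as judged by its gap over the range of the group; chance gives about 1 in 20. The array Trib1 hi 3 gave 10 of the 11. On it, bright genes were the lowest of the group. Mki67 read 5568, below the 7479 to 7621 of the other 3. Top2a read 7061, below the 9939 to 10166 of the other 3. Smc2 read 5333, below the 7025 to 7215 of the other 3. Smc4 read 7002, below the 9903 to 10192 of the other 3. Cdk1 read 5907, below the 7830.2 to 8115 of the other 3. Ube2c read 9694, below the 13554 to 14206 of the other 3. Cenpa read 5773, below the 8232 to 8682 of the other 3. Dim genes were the highest on the same array. Cdc25c read 314, above the 9.15 to 10.9 of the other 3. Foxm1 read 223, above the 8.35 to 10.3 of the other 3. Kif23 read 221, above the 6.78 to 8.18 of the other 3. The remaining value was on another array: Smc2 read 4977 on Trib1 null 1, below the 5588 to 5671 of the other 3.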

How the results depend on the processing

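The number of all genes called higher was 1363, but 3357 after quantile normalization, 181 with equal medians, 725 with the mean of probe sets and 2820 with array quality weights; leaving out single arrays gave 1153 to 2103. The number of all genes called lower was 2409, but 1595 with a floor of 500, 1158 with a floor of 1000, 1317 with the mean of probe sets, 1274 with no variance trend and 4900 with array quality weights; leaving out single arrays gave 1964 to 3768. The number of mitotic genes called higher was 14, but 25 after quantile normalization, 0 with equal medians, 8 with a floor of 500, 6 with a floor of 1000, 7 with no filter, 6 with the mean of probe sets, 2 with no variance trend and 28 with array quality weights; leaving out single arrays gave 6 to 25. The number of mitotic genes called lower was 5, but 8 after quantile normalization, 3 with a floor of 500, 3 with a floor of 1000, 2 with no filter, 1 with the mean of probe sets, 2 with no variance trend and 14 with array quality weights; leaving out single arrays gave 3 to 13. Of calls over all genes, 36.1% were higher, 50% after quantile normalization and 7.4% with equal medians. Equal medians lower every signal of Trib1 hi 3 against the other arrays, since its median was 68.3 against 3.71 to 9.56. With the replicate number as a replicate block, 10 mitotic genes were higher and 5 lower, and 1284 and 2346 of all genes. The labels give no pairing behind the numbers, and same-numbered arrays did not deviate together (correlations of -0.30, 0.31, -0.08 and 0.02 over genes with a mean signal over 500). With equal medians the difference turned negative for all 14 genes called higher, Smc2 (-0.58), Ccnb2 (-0.52), Plk4 (-0.14), Aurka (-0.53), Aurkb (-0.61), Birc5 (-0.56), Bub3 (-0.53), Mad2l1 (-0.44), Cdc20 (-0.50), Ube2c (-0.51), Spc24 (-0.34), Tpx2 (-0.50), Prc1 (-0.58) and Ect2 (-0.55), and for 16 genes not called, Top2a (-0.66), Smc4 (-0.72), Ncapd2 (-0.78), Cdk1 (-0.62), Ccna2 (-0.69), Incenp (-0.74), Bub1 (-0.83), Espl1 (-0.68), Cenpa (-0.72), Cenpe (-0.66), Cenph (-0.70), Ndc80 (-0.84), Spc25 (-0.68), Hmmr (-0.69), Racgap1 (-0.57) and Anln (-0.73); none of these passed (adjusted p from 0.651 to 0.928). The sign also turned with the mean of probe sets for Smc2 (-0.40), Bub3 (-0.12), Ttk (0.0554), Cenpa (-0.59), Cenpe (-0.00774), Nusap1 (0.20) and Hmmr (-0.68); after quantile normalization for Cdc25c (0.14), Plk1 (0.20), Bub1 (-0.0474), Ttk (0.00912) and Kif20a (0.25); with a floor of 1000 for Plk1 (0.00109) and Kif20a (0.0375); with array quality weights for Ndc80 (-0.15). Of these, Plk1 and Kif20a passed after quantile normalization, and Smc2 and Bub3 lost their calls. Leaving out single arrays gave both signs for Mki67 (-0.14 to 0.0132, turned without Trib1 hi 3); Plk1 (-0.14 to 0.0276, turned without Trib1 hi 2); Bub1 (-0.0396 to 0.11, turned without Trib1 hi 1 or Trib1 hi 2); Ndc80 (-0.0694 to 0.11, turned without Trib1 hi 4, Trib1 null 1 or Trib1 null 4); Kif20a (-0.14 to 0.0796, turned without Trib1 hi 1, Trib1 hi 2, Trib1 null 1 or Trib1 null 3), none of the turned values called. Of 893 values of single mitotic genes over 19 alternatives, 643 stayed on their side of the threshold without a turned sign (Espl1 at exactly 0 with a floor of 1000 among them), 123 lost a call, 71 gained one and 56 turned sign. The cause of these changes was not tested. Differences of genes with signals under 500 are limited by the level at which the arrays part.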
